A study of Mus musculus with 6 samples.

Results

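The heme synthesis genes analysed here were 9 of the 24376 genes in the deposited tables: Slc25a38, Alas1, Alas2, Alad, Uros, Urod, Cpox, Ppox and Fech. They were taken by name, in pathway order, and not by any measured value, although earlier results of these data were known. The list does not hold every enzyme of the pathway. All 9 had an identifier in the tables, and all 9 passed the filter on low counts that left 12670 genes for testing. The libraries come from blood progenitors of C57BL/6 mouse E14.5 fetal liver, infected with a retrovirus and grown for 3 days. The virus carried a control short hairpin RNA (shRNA) for the 3 control libraries and, for the 3 shSamd14 libraries, one directed at Samd14, which encodes a sterile alpha motif protein. Cells without CD71 and Ter119 at the surface, both markers of maturing erythroid cells, were then sorted, 200000 per sample, and lysed. The sorted cells are therefore a mixed fraction selected against maturing red cells, and how far these were removed was not measured here. Whether libraries of 1 group stem from different animals or cultures is not in the labels, so a p-value here reflects the spread among these libraries alone, which may be technical.

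Heme is an iron-containing ring that begins and ends in the mitochondrion. Slc25a38 encodes a carrier of the inner mitochondrial membrane that brings in glycine. Aminolevulinate synthase then joins glycine to succinyl-CoA, the committed step, and mammals have a pair of genes for it. Alas1 is active in most tissues and is repressed by heme, whereas Alas2 is the erythroid gene, which is driven by GATA1 and whose translation depends on iron. Alad, Uros and Urod encode enzymes of the cytosol that build and trim the porphyrin ring. Cpox and Ppox oxidise it in the mitochondrion, and Fech, ferrochelatase, inserts the iron.

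Total counts lay between 20584169 and 26462797 per library, so that 3 counts corresponded to 0.111 to 0.145 CPM, that is, counts scaled to the same total in each library. Samd14 was at 82.0, 82.1 and 83.8 CPM in the control libraries and at 41.9, 38.8 and 39.4 CPM under shSamd14, lower in all 3 as its label says. In all, 2.58% of tested genes were called between the groups, that is, had an edgeR adjusted p below 0.05. Of the surface markers used for sorting, the gene for CD71, Tfrc, still had transcripts at 934 CPM under the control shRNA and 824 CPM under shSamd14 on average. Among liver markers, albumin (Alb) had between 0 and 43 counts per library, and Serpina1a and Cyp3a16 were at 0 in all libraries. The 9 hepatocyte genes summed to between 25.7 and 50.1 CPM. Most of this sum was Apoa1, at 46.2, 23.8 and 37.2 CPM in control libraries and 26.4, 19.3 and 20.1 CPM under shSamd14.

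Every gene of the pathway was expressed, but at very different levels. Compared per transcript length, in TPM (expression per transcript length, scaled to the same total in each library), Cpox was the highest by far, at 480 ± 32.0 TPM (SD over all 6 libraries), and Alas2 the lowest at 26.8 ± 9.77 TPM. Cpox stood at the 97.9th percentile of mean TPM among tested genes and Alas2 at the 61st. Between these lay Fech (212 ± 14.3 TPM), Alad (207 ± 14.2), Urod (119 ± 6.68), Ppox (95.8 ± 4.95), Slc25a38 (53.6 ± 2.22), Alas1 (51.5 ± 9.62) and Uros (40.4 ± 4.70). The ranges of Fech and Alad overlapped, and Fech was above Alad in 3 of 6 libraries, so this pair has no order. Slc25a38 and Alas1 overlapped in the same way, with Slc25a38 the higher in 3 of 6 libraries. Alas1 was above Uros, and Uros above Alas2, in 5 of 6 libraries each, with overlapping ranges. The steps from Cpox to Fech, from Alad to Urod, from Urod to Ppox and from Ppox to Slc25a38 held in 6 of 6 libraries without overlap.

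**Figure D1:**
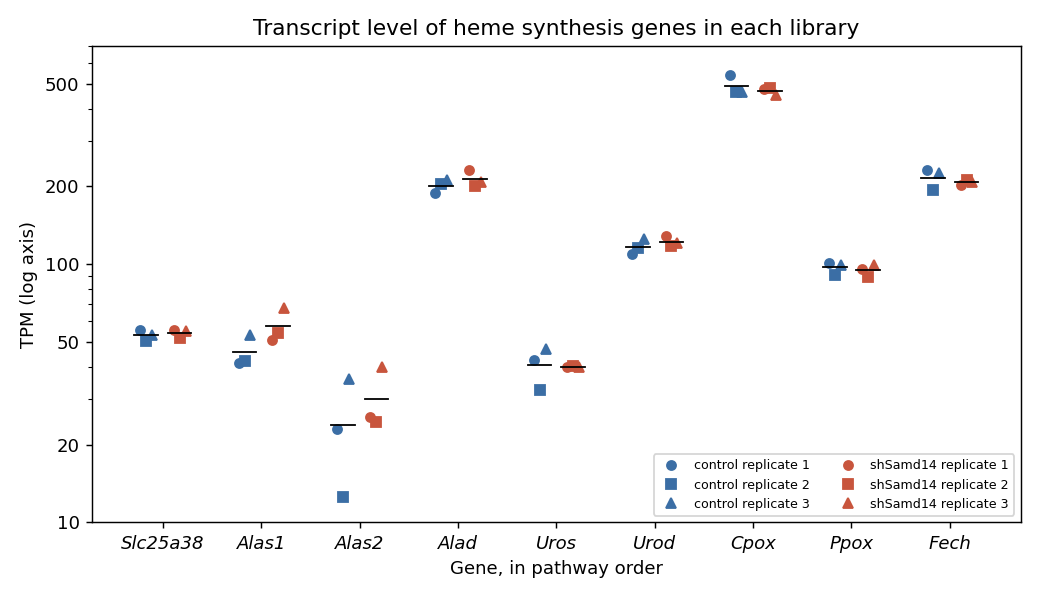
TPM of the 9 genes in each library, on a log axis, in pathway order; symbols mark the replicate, colours the group, and black lines the group means. Cpox lies between 452 and 541 TPM in every library, and Alas2 between 12.5 and 39.8 TPM.

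Cpox held 35.0% to 40.6% of the summed TPM of the 9 genes. Alas1 and Alas2 together came to 64.2, 54.6 and 89.1 TPM in the control libraries and to 76.4, 78.5 and 107 TPM in the shSamd14 libraries. Cpox alone was 4.21 to 8.51 times the sum of both synthase genes. The mRNA level says nothing of enzyme activity, which was not measured.

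Start-site sequence is shown for the lowest and the highest gene of this order and for Uros, the member with the most transcripts in the tables. The 250 bases before each start annotated by RefSeq (GRCm38.p6, the assembly of mm10) were searched for 8 of the 9 genes. These had 11 starts in all, and Fech was left out of the search. Both strands were searched for the word AGATAA or AGATAG, and for TGATAA or TGATAG, which are letters that GATA factors are known to bind. These words occurred before 3 of the 11 starts, against 26.5% of all 32851 such windows: before Alas2, before Cpox and before the internal start of Uros. No such word was in the windows before Alas1, Alad, Urod, Ppox, Slc25a38 or the upstream start of Uros. Every stretch printed below is from a window with such a word, and the stretch before the upstream Uros start is not printed. A match describes letters in a window and not binding, which was not measured. Each line below gives 120 bases, 5′ to 3′ on the strand of the gene and outside its annotated exons, with the GATA words in capitals.
Alas2 (chrX:150547255-150547374, plus strand, bases -162 to -43 from the RefSeq start): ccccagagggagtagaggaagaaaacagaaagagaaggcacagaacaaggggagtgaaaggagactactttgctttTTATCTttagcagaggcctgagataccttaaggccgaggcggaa
Cpox (chr16:58670088-58670207, plus strand, bases -120 to -1): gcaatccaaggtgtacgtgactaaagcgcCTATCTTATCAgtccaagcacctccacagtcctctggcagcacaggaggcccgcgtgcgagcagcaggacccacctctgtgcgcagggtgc
Uros, internal start (chr7:133702617-133702736, minus strand, bases -236 to -117): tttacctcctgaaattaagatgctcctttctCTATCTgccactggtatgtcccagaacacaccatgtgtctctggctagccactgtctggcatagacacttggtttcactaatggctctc

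The stretch before Alas2 held 1 GATA word and that before Cpox held 2, which overlap by a base. A further GATA word before the internal Uros start, at base -68, lies in an annotated exon and is not shown. The word CACCC, which KLF factors are known to bind, occurred 3 times before Alas2 and 4 times before Cpox, against 52% of all windows with at least 1; it is common, and was also found before starts of Alas1, Alad and Slc25a38.

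None of the 9 genes passed the test between the groups, while 2.58% of all tested genes were called. For this, edgeR's p-values (quasi-likelihood F, two-sided) were adjusted by Benjamini and Hochberg over all genes. A raw p under 0.05 was found for 0 of the 9, against 1900 of the 12670 tested genes. DESeq2 and limma-voom called 0 of the 9 as well. With the replicate number as a block edgeR called 1, Alas1 (edgeR adjusted p = 0.00471), but the numbers were not taken to pair the libraries. For no member did the 3 shSamd14 libraries lie wholly above or below the 3 control libraries, while 10.5% of tested genes had all shSamd14 libraries above all control libraries and 10.2% had them all below. The median log2 fold change of the 9 genes was 0.06, against 0.01 over all tested genes, with 6 positive and 3 negative values. The 95% confidence intervals show how large a difference could have been missed. Leaving aside Alas1 and Alas2, they ran from 0.846-fold to 1.19-fold of the control level over the other 7 genes.

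**Figure D2:**
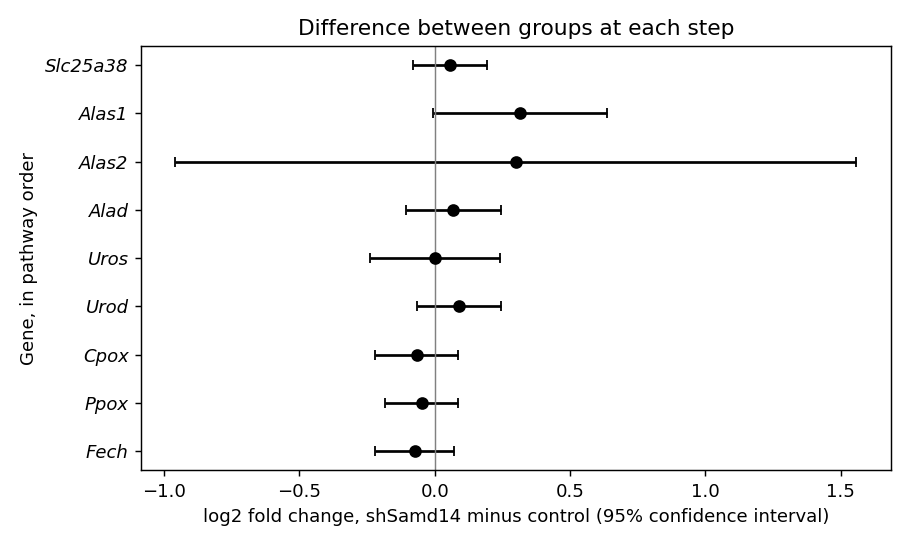
Log2 fold change of each gene, shSamd14 minus control, as points with 95% confidence intervals from edgeR's quasi-likelihood fit; the vertical line marks no difference. All 9 intervals reach across the line, and that of Alas2 is the widest, from -0.96 to 1.56.

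Of the glycine carrier Slc25a38 (chromosome 9, 120110374 to 120124504, mm10), the control libraries held 47.8, 47.1 and 49.0 CPM and the shSamd14 libraries 52.0, 47.7 and 49.9 CPM. It was the steadiest member, with all 6 libraries within 1.10-fold of each other. Its log2 fold change was 0.06 (standard error 0.06, edgeR adjusted p = 0.743).

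Alas1 (chromosome 9, 106233455 to 106248654) came closest to a difference. It stood at 53.7, 58.1 and 73.7 CPM in the control libraries and at 70.2, 72.4 and 88.1 CPM under shSamd14. Control replicate 3 lay above shSamd14 replicates 1 and 2, so the groups overlapped, with 7 of the 9 between-group pairs higher in shSamd14. The means were 61.8 ± 10.5 and 76.9 ± 9.80 CPM (SD, n = 3 each), a log2 fold change of 0.31 (standard error 0.14, 95% interval -0.01 to 0.63), for which edgeR gave a raw p of 0.0538 and 0.344 as adjusted p. Leaving out 1 library changed this call: without control replicate 3 the log2 fold change was 0.453 and edgeR's adjusted p 0.0357, whereas in the other 5 fits with 1 library left out the adjusted p was at least 0.406. The log2 fold change was 0.219 without control replicate 1 and 0.20 without shSamd14 replicate 3.

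Alas2 (chromosome X, 150547375 to 150570638) differed more within a group than between them. The control libraries held 26.5, 14.9 and 43.5 CPM and the shSamd14 libraries 30.8, 28.5 and 45.2 CPM. Control replicate 2 was the lowest of all, and the libraries numbered 3 were the highest of each group. The highest control library was 2.93 times the lowest, and the highest shSamd14 library 1.59 times the lowest. The means were 28.3 ± 14.4 and 34.8 ± 9.05 CPM (SD, n = 3 each), and the log2 fold change was 0.30 (standard error 0.46, edgeR adjusted p = 0.827). Its 95% interval, 0.514-fold to 2.95-fold, excludes neither a fall nor a rise within these bounds. Without control replicate 2 the log2 fold change was -0.01, and without control replicate 3 it was 0.755. Alas2 overlaps Apex2 on the opposite strand over its whole annotated length, 23264 bases, and whether the counting used strand is not given in the sources used here, so part of its reads could belong to Apex2.

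The cytosolic enzymes had a smaller SD of log2 CPM within groups than Alas1 (0.209) and Alas2 (0.592), at 0.136 for Alad, 0.183 for Uros and 0.110 for Urod. Among control libraries alone, the highest over the lowest was 1.43 for Uros and 1.37 for Alas1. Alad (chromosome 4, 62509169 to 62519918), which joins the first pair of precursors, stood at 128, 147 and 151 CPM in control libraries and 166, 139 and 141 CPM under shSamd14. Control replicate 1 was the lowest and shSamd14 replicate 1 the highest, and its log2 fold change of 0.07 (standard error 0.08, edgeR adjusted p = 0.751) became negative without either of these libraries (-0.006 and -0.027). Uros (chromosome 7, 133686243 to 133710072), which closes the ring, stood at 32.0, 26.1 and 37.3 CPM in control libraries and 32.6, 30.9 and 32.0 CPM under shSamd14. The control libraries lay on both sides of the shSamd14 libraries and the log2 fold change was 0.00 (standard error 0.11). Without control replicate 2 the log2 fold change of Uros was -0.126, and without control replicate 3 it was 0.127. Urod (chromosome 4, 116989965 to 116994413), which shortens the side chains, stood at 88.9, 96.0 and 106 CPM in control libraries and 111, 100 and 98.7 CPM under shSamd14, with a log2 fold change of 0.09 (standard error 0.07, edgeR adjusted p = 0.615). Without control replicate 1 that of Urod was 0.027. Alad and Urod had the most similar profiles of all pairs of members, with a root mean square difference of 0.0474 on the centred log2 CPM scale over 6 libraries.

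The last, mitochondrial steps had small negative values. Cpox (chromosome 16, 58670292 to 58717636), which oxidises coproporphyrinogen, stood at 1001, 907 and 901 CPM in control libraries and 931, 916 and 835 CPM under shSamd14, a log2 fold change of -0.07 (standard error 0.07, edgeR adjusted p = 0.72). Ppox (chromosome 1, 171275990 to 171281186), which makes protoporphyrin, stood at 105, 99.3 and 109 CPM and at 105, 95.5 and 103 CPM, with a log2 fold change of -0.05 (standard error 0.06). Fech (chromosome 18), which inserts the iron, stood at 387, 342 and 400 CPM and at 361, 365 and 348 CPM, with a log2 fold change of -0.07 (standard error 0.07, edgeR adjusted p = 0.667). For these genes control and shSamd14 libraries were interleaved, and the sign stayed negative in each of the 6 fits with 1 library left out, with log2 fold changes between -0.139 and -0.01. Uros overlaps Bccip, Cpox overlaps Gpr15, and Ppox overlaps B4galt3 on the opposite strand, and Alas1 overlaps 4930500F10Rik, each over less than 1 kilobase.

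**Figure D3:**
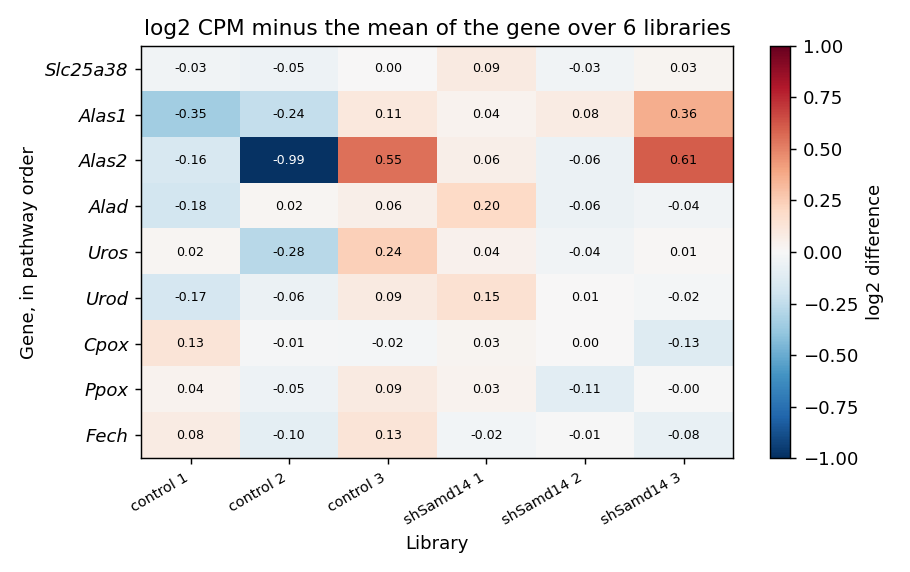
Centred log2 CPM of each gene (rows, pathway order) in each library (columns), printed in the cells and coloured from -1 to 1. Alas2 spans -0.99 to 0.61 and Alas1 -0.35 to 0.36, while the last 3 genes stay within 0.131 of their means.

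The members differed most in how much they varied between libraries of a group. The SD of log2 CPM within groups was 0.592 for Alas2, and of the 4101 tested genes with a mean CPM within 2-fold of it, itself included, 1 had a larger value. Alas1 had an SD of 0.209, at the 97.8th percentile of the genes at its level, where the median was 0.0802. Alad and Uros were at the 93rd and 92.7th percentile, Urod at the 82.3rd and Fech at the 65.5th. Cpox and Ppox were near the middle (45.1 and 42.9), and Slc25a38 at the 11.7th percentile with an SD of 0.0473. Both genes for the committed step were among the most variable genes at their level of expression, and the later mitochondrial enzymes were not. High spread was not particular to the committed step, since Alad and Uros also varied more than most genes at their level.

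The balance between the synthase genes was taken per library as the TPM of Alas2 over that of Alas1. Alas1 was the higher of the pair in 6 of 6 libraries. Alas1 stood at 41.2, 42.1 and 53.4 TPM in control libraries and 50.8, 54.0 and 67.6 TPM in shSamd14 libraries. Alas2 stood at 22.9, 12.5 and 35.8 TPM and at 25.5, 24.5 and 39.8 TPM in the same order. Alas2 thus made up 35.8%, 22.9% and 40.2% of the pair in the control libraries and 33.5%, 31.2% and 37.1% in the shSamd14 libraries. The shSamd14 libraries lay inside the range of the control libraries. The mean log2 ratio was -1.06 ± 0.618 in control and -0.97 ± 0.192 in shSamd14 libraries (SD, n = 3 each), a difference of 0.09 with p = 0.9 in a two-sided exact permutation test, for which the smallest p with 3 against 3 libraries is 0.1. The difference became -0.255 without control replicate 2 and -0.01 without shSamd14 replicate 3, so its sign is not determined by these libraries.

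**Figure D4:**
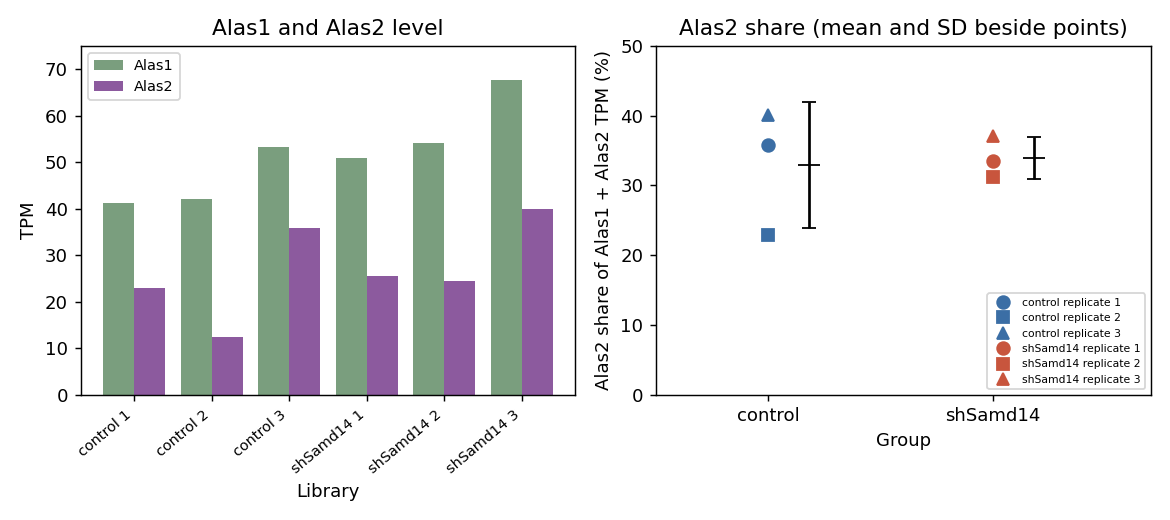
Left, TPM of Alas1 and Alas2 in each library as bars from 0; right, the share of Alas2 in their summed TPM as points per library, with the mean and SD of each group beside them. The share runs from 22.9% to 40.2% in control and from 31.2% to 37.1% in shSamd14 libraries.

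The tables also give each gene's transcript length, weighted by the estimated abundance of its transcripts, which moves when the mix of transcripts changes. It could vary for the 6 members with several transcripts in the tables; Cpox, Ppox and Fech had 1 each. The weighted length of Urod was 1437, 1388 and 1424 bases in control and 1443, 1464 and 1440 bases in shSamd14 libraries. These groups did not overlap, with a difference of 32.4 bases (two-sided exact permutation p = 0.1, the smallest possible here, and 0.4 after adjustment over 6 genes). Uros, with 7 transcripts, had lengths of 1333, 1345 and 1336 bases in control and 1361, 1319 and 1419 bases in shSamd14 libraries, where the spread was larger (SD 50.2 against 6.19 bases) and the means did not separate (exact permutation p = 0.5). For Alas2 the lengths were 2013, 1969 and 2007 bases in control and 1983, 1978 and 1980 bases in shSamd14 libraries (exact permutation p = 0.4). The difference was 40.2 bases for Slc25a38 (exact permutation p = 0.2), -3.09 for Alas1 and -1.40 for Alad. No adjusted value was below 0.4.

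The genes most like Alas2 and Alas1 across the libraries were found next. In bulk RNA, fewer cells of a type and less RNA per cell cannot be told apart. Of the genes with a mean of 10 CPM or more, the 5 whose centred log2 CPM profile over the 6 libraries was nearest to that of Alas2 were Itgb2l, Lyz2, Sqor, Mcemp1 and Mmp8, with root mean square differences of 0.137, 0.186, 0.197, 0.199 and 0.222 among 8512 genes ranked. Lyz2 encodes lysozyme of myeloid cells, Mmp8 neutrophil collagenase and Sqor an enzyme of mitochondrial sulfide oxidation. Lyz2 stood at 340, 241 and 479 CPM in control libraries and 365, 330 and 512 CPM under shSamd14, lowest and highest in the same libraries as Alas2. This likeness, as for the genes nearest to Alas1, was set by choosing genes on their profile. The 5 nearest to Alas1 were Glrx, Adam15, Ethe1, Rin3 and Dgat1, at 0.042 to 0.0601. Glrx encodes a glutaredoxin and stood at 24.8, 26.2 and 34.5 CPM in control libraries and 32.1, 31.3 and 41.7 CPM under shSamd14.

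The 9 neutrophil marker genes, all detected in this series, summed to 3438, 3402 and 5442 CPM under the control shRNA and to 3729, 3940 and 5540 CPM under shSamd14. They were highest in the libraries numbered 3, as Alas1 and Alas2 were. With both libraries numbered 3 left out, the log2 fold change of Alas1 was 0.346 (edgeR adjusted p = 0.0198, with 2 libraries a group) and that of Alas2 was 0.525 (edgeR adjusted p = 0.57). The part of neutrophil precursors in the levels of either gene was not tested.

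Of the 19 erythroid marker genes, 4 had the library order of Alas2, lowest in replicate 2 and highest in replicate 3 of both groups, and 4 others were lowest in replicate 3 of both groups. The first 4 were Slc4a1, Hbb-bt, Hbb-bs and Hba-a2, and the others were Aqp1, Car1, Rhag and Ermap, both sets being named after their values were seen. The library order of Alas2 was also that of 4 of the 9 neutrophil marker genes and of 0 of 11 megakaryocyte marker genes. How many of all tested genes had this order was not counted. Slc4a1, the anion exchanger of the red cell membrane, stood at 17.3, 9.97 and 34.3 CPM in control libraries and 32.2, 30.1 and 51.6 CPM under shSamd14, and the adult beta globin gene Hbb-bt at 403, 260 and 493 CPM and at 694, 560 and 714 CPM. Unlike Alas2, Hbb-bt was higher in all 3 shSamd14 libraries than in all 3 control libraries, though its log2 fold change of 0.77 (standard error 0.27) did not pass (edgeR adjusted p = 0.303). The 19 erythroid marker genes, none at 0, summed to 6578, 5470 and 7483 CPM under the control shRNA and to 8843, 7780 and 8837 CPM under shSamd14, so all shSamd14 libraries were above all control libraries in this sum. Much of the rise lay in globin genes, none of which was called. Their means went from 386 to 656 CPM (Hbb-bt), 856 to 1398 (Hbb-bs), 801 to 1254.5 (Hba-a1) and 861 to 1269.5 (Hba-a2). The groups overlapped for Hba-a1 and Hba-a2. Of the 19, 17 had a positive and 2 a negative log2 fold change, and Rhd was lower in all 3 shSamd14 libraries than in all 3 control libraries. In the test between groups 3 of the 19 rose and none fell, against 2.58% of all tested genes called in either direction. These were Aqp1, a water channel (log2 fold change 0.63, edgeR adjusted p = 0.000229), Car1, a carbonic anhydrase (0.53, edgeR adjusted p = 0.00158), and Hemgn (0.37, edgeR adjusted p = 0.0255). The 11 megakaryocyte marker genes, none at 0, also summed higher in all shSamd14 libraries, at 322, 300.3 and 279 CPM under the control shRNA and 373, 386 and 372 CPM under shSamd14. All 11 had a positive log2 fold change, and 4 rose: Pf4, Gp5, Vwf and Treml1. The part of erythroid or megakaryocyte cells in the level of Alas2 was not tested.

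**Figure D5:**
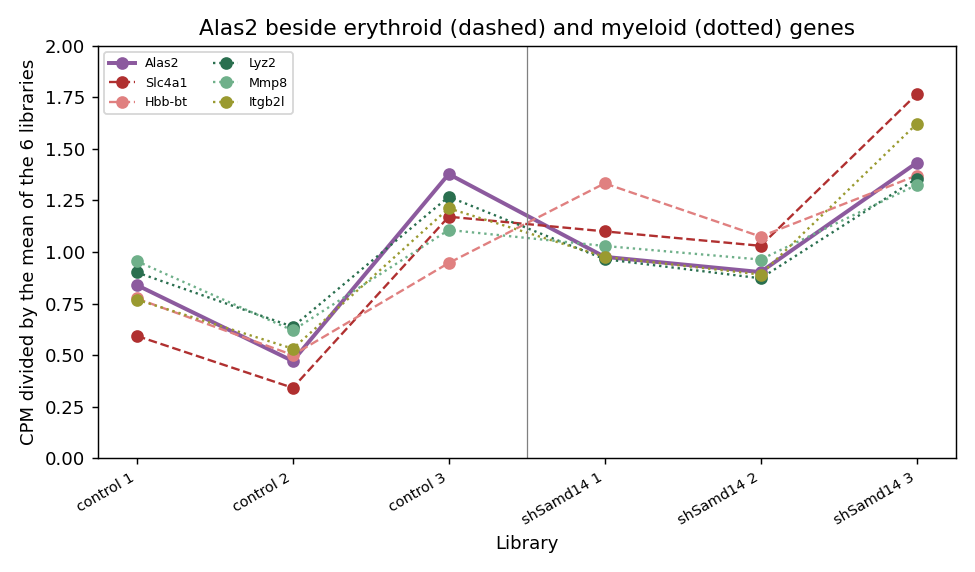
CPM of Alas2 and 5 other genes in each library, divided by the gene's mean over the 6 libraries; dashed lines mark erythroid and dotted lines myeloid genes, and lines only join the points of a gene. Alas2 is lowest in control replicate 2 (14.9 CPM) and highest in shSamd14 replicate 3 (45.2 CPM), as are Slc4a1, Hbb-bt, Lyz2, Mmp8 and Itgb2l. Lyz2, Mmp8 and Itgb2l were chosen for their nearness to Alas2 in profile, so their likeness was set by that choice.

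Around the pathway, 4 of 56 tested genes in 4 lists of heme-related genes and regulators passed the test, against 2.58% of all tested genes. Of 17 genes that supply or assist the mitochondrial steps, 0 passed in edgeR, with DESeq2 or with limma-voom. A raw edgeR p under 0.05 was found for 4 of the 17, against 1900 of the 12670 tested genes. The median log2 fold change of the 17 was 0.03. The smallest p among them was that of Slc25a39, which encodes a carrier of the mitochondrial membrane, at 58.4, 70.1 and 69.3 CPM in control libraries and 80.1, 73.9 and 77.3 CPM under shSamd14. The groups did not overlap, and its log2 fold change was 0.22 (standard error 0.07, edgeR adjusted p = 0.15). Of 15 genes of iron-sulfur cluster assembly, which provides the cluster of ferrochelatase, 1 rose and none fell, with a median of 0.07. Isca1, which encodes a late-acting assembly protein, rose from 67.3 to 82.7 CPM on average, with 63.9, 68.6 and 69.4 CPM under the control shRNA and 83.4, 83.3 and 81.5 CPM under shSamd14 (log2 fold change 0.30 with a standard error of 0.06, edgeR adjusted p = 0.017).

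Of 9 tested genes of heme transport and breakdown, 1 rose and 1 fell, with a median of 0.05. Flvcr1, which encodes a transporter described as a heme exporter, fell from 86.2, 83.2 and 79.1 CPM in control to 66.5, 71.6 and 65.8 CPM under shSamd14 (log2 fold change -0.29 with a standard error of 0.06, edgeR adjusted p = 0.0265). Slc48a1, which encodes the endosomal heme transporter HRG1, rose from 108, 104 and 116 CPM to 132, 124 and 134 CPM (log2 fold change 0.25 with a standard error of 0.06, edgeR adjusted p = 0.0441). Of 15 tested regulators, none rose and 1 fell, with a median of 0.04. This was Bach1, a repressor that heme inactivates, at 91.9, 79.9 and 89.4 CPM under the control shRNA and 58.5, 60.9 and 63.6 CPM under shSamd14 (log2 fold change -0.51 with a standard error of 0.07, edgeR adjusted p = 0.00104). Gata1, the erythroid factor that drives Alas2, had 173, 176 and 170 CPM under the control shRNA and 193, 175 and 180 CPM under shSamd14, a log2 fold change of 0.08 (standard error 0.06, edgeR adjusted p = 0.586). Klf1, another erythroid activator, had a log2 fold change of 0.04 (standard error 0.08, edgeR adjusted p = 0.855), which was negative without control replicate 1 (-0.017) or shSamd14 replicate 1 (-0.069).

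Of the 4 genes that passed, Bach1 passed in each of the 6 fits with 1 library left out (edgeR adjusted p from 0.000731 to 0.0131). Isca1 missed the threshold in 3 of them (without control replicate 1 and without shSamd14 replicates 1 and 2), with an adjusted p of up to 0.0921. Flvcr1 and Slc48a1 missed it in 5 each, in every fit but that without control replicate 3, with adjusted p of up to 0.114 and 0.169. The log2 fold change stayed between 0.218 and 0.314 for the 2 genes that rose and between -0.327 and -0.262 for Flvcr1.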

How the data were processed

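Tools listed in the submitters' processing notes, without roles or settings, are Bowtie 1.0.1, CASAVA 1.8.2 and RSEM 1.2.15, with mm10 as build. Strand use, trimming and annotation release: not given in the sources used here. Per the file headers, the authors deposited transcript length, FPKM, TPM and expected counts per gene, with 1 table for each library. FPKM was used only as an alternative scale of the Alas2 to Alas1 ratio. Symbols and coordinates are from GENCODE M21 (GRCm38); 23580 IDs had a symbol.

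Expected counts were rounded and tested with edgeR 4.0.16 (R 4.3.3): filterByExpr (minimum count 10, total 15), TMM, robust quasi-likelihood test, two-sided, Benjamini-Hochberg adjustment over 12670 genes. SE is the absolute log2 fold change over the root of F. CPM are TMM-scaled. On simulated counts for this comparison (12670 genes) the test found 46.7% of 1.25-fold and 76.7% of 1.5-fold changes, with 5.11% false calls. Each simulated gene had the spread typical of its level. These shares therefore do not hold for members with more spread, which are above all Alas2 and Alas1, and also Alad and Uros. No libraries were duplicates: chi-square over degrees of freedom between libraries of a group was 5.48 to 11.58.

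The members, gene lists and tests were chosen with earlier results of these data known. Some genes of the lists are not reported here; they were taken out of the lists, and of the counts and sums over them, after the values had been seen, and 1 of them had passed the test. In a list where none passes, the gene with the smallest p is named. The rule names all members, Samd14, in each heme-related list up to 3 genes past the threshold, Gata1, Klf1, Bach1, Tfrc, Slc4a1 and Hbb-bt, and the 5 genes nearest in profile to Alas2 and to Alas1. Lists of progenitor, mast cell, macrophage and endothelial markers were summed too: 1189 to 1379, 237 to 318, 29.6 to 50.8 and 17.1 to 21.3 CPM per library. The alternatives tried were upper quartile or RLE size factors, 1 CPM in 3 libraries as filter or none, effective-length offsets, a replicate block, DESeq2 1.42.0, limma-voom, limma 3.58.1 on log2(TPM + 1) or log2(TPM + 0.1) where 3 libraries reach 1 TPM, and leaving out each library; leaving out both libraries numbered 3 was added after seeing the data.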

Additional observations from a re-analysis of the deposited data

How the results depend on the processing

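The count of members called was 0 with all libraries and 0 to 1 with 1 library left out; it was 1, Alas1, with both libraries numbered 3 left out. The count over all genes was 327, 128 (without shSamd14 replicate 2) to 283 with 1 library left out, 168 and 170 with limma on log2(TPM + 1) and log2(TPM + 0.1). Of the heme-related genes, 2 were higher and 2 lower; with 1 library left out 0 to 2 were higher and 1 to 2 lower, and each limma fit on TPM gave 1 and 1; 1 was higher with upper quartile factors, effective-length offsets and limma-voom (1 each). With the replicate number as a block, 682 genes, 1 member (Alas1, log2 fold change 0.32, edgeR adjusted p = 0.00471) and 4 heme-related genes on the higher side were called, and Hbb-bt passed (0.806, edgeR adjusted p = 4.7e-06). The numbers were not taken to pair the libraries: deviations of same-numbered libraries correlated at -0.0723, 0.153 and 0.272, and shSamd14 replicate 1 correlated more with control replicate 2 (0.177). The Alas2 to Alas1 log2 ratio differed by 0.09 with the block as without it, by -0.255 to 0.334 with 1 library left out and by 0.232 without both libraries numbered 3.

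Uros, at 0.00, was -0.001286 with RLE factors, -0.003468 with upper quartile factors, -0.0303 with effective-length offsets, -0.002063 with DESeq2, and -0.004304 and -0.004013 in the limma fits on TPM. With 1 library left out, log2 fold changes ranged from -0.126 to 0.127 for Uros, -0.009519 to 0.755 for Alas2, -0.027 to 0.112 for Alad and -0.069 to 0.091 for Klf1. The cause of these changes was not tested. Of the 5 nearest genes, 4 were shared between the log2 CPM and log2(TPM + 1) scales for Alas2 and 4 for Alas1. Alas2 rests on 341 to 1219 counts per library, and the part of counting or of read assignment in its spread was not tested.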
